A study of Mus musculus with 5 samples.

Results

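The miR-15/16 family and the family of miR-103 and miR-107, 8 mature miRNAs with overlapping seeds, were followed in mouse kidney after renal ischemia reperfusion injury (IRI). The members were chosen by name from the 1247 mouse miRNAs of an Agilent 1-colour miRNA microarray, 6 from the miR-15/16 family (miR-15a-5p, miR-15b-5p, miR-16-5p, miR-195a-5p, miR-497-5p, and miR-322-5p) and 2 from the other (miR-103-3p and miR-107-3p). Of these, 7 were found under the name sought and miR-195-5p was found as miR-195a-5p. Kidney RNA came from healthy male C57B/6 mice of 20 to 25 g, whose age the labels do not give, with 8 mice per time point. Both kidneys of the IRI mice underwent 30 min of warm ischemia and were taken after 6, 12, 24, or 48 h of reperfusion, and sham-operated mice had the same operation with no vascular clamp. Each of the 5 groups had 1 array, and whether the RNA of several mice was pooled on it is not stated in the sources used here. The variation from mouse to mouse is thus unknown, group differences were not tested, and each error given is that of the scanner software for the spots of 1 array. The 4 comparisons with sham share the sham array.

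All 8 members were detected on all 5 arrays, as were 182 of the 1247 miRNAs. A probe was taken as detected when its signal exceeded 3 times its error, and the signal of a miRNA was the sum over its detected probes. Every member was read by 2 probes in 40 spots per array. Of the 1600 spots of the members on the 5 arrays, all were above background, 99 were marked as outliers by the scanner software, and 0 were saturated. The scanner error of a member lay between 7.14% and 8.95% of its signal. Slide 1 held sham and 6 h, and slide 2 held 12, 24, and 48 h, of which 48 h was scanned separately, so for the last 3 groups the effect of slide and that of IRI cannot be told apart. The software multiplied probe signals by a feature size of 0.6 on the sham, 6 h, and 48 h arrays and of 0.774 and 0.776 on the 12 and 24 h arrays, a factor of 1.29 at 12 and 24 h. The 4 spike-in RNAs, which are added during labelling and hybridization, had mean log2 ratios over sham of 0.07, 1.05, 1.09, and 1.04 in time order, and the single spike-ins ranged from 0.70 to 1.68 at 12 h, 0.61 to 1.58 at 24 h, and 0.63 to 1.28 at 48 h.

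A miRNA finds its target mRNAs mainly through its seed, a short stretch near its 5′ end that pairs with sites in the mRNA, and miRNAs of 1 seed share many predicted targets. The miR-15/16 family is best known for restraining the cell cycle, through targets such as the cyclins Ccnd1 and Ccne1, and for repressing the survival factor Bcl2. The miRNAs miR-103 and miR-107 lie in introns of pantothenate kinase genes, whose products start the synthesis of coenzyme A, and are known as regulators of Dicer and of insulin signalling. In the mature sequences from RefSeq (GRCm38.p6), shown because they define both families and how their probes can tell the members apart, bases 2 to 8 are in capitals:
mmu-miR-15a-5p: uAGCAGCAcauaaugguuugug
mmu-miR-15b-5p: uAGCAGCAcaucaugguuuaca
mmu-miR-16-5p: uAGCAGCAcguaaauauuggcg
mmu-miR-195a-5p: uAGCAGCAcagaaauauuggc
mmu-miR-497-5p: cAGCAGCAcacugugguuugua
mmu-miR-322-5p: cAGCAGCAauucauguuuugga
mmu-miR-103-3p: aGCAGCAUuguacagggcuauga
mmu-miR-107-3p: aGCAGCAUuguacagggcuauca

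The seed AGCAGCA was common to all 6 members of the miR-15/16 family. In miR-103-3p and miR-107-3p the same letters were shifted by 1 base, which gave the seed GCAGCAU. Outside the seed the 6 members differed more, with 12 of 14 compared bases equal between miR-16-5p and miR-195a-5p and 11 of 15 between miR-15a-5p and miR-15b-5p. Between miR-16-5p and miR-497-5p 4 of 15 such bases were equal, and between miR-195a-5p and miR-322-5p 4 of 14. Within the other family the difference was 1 of 23 bases, G22C, counted from the 5′ end with the base of miR-103-3p first.

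In the genome, miR-15a lies on the minus strand at chr14:61632075-61632096 and 1 copy of miR-16 at chr14:61631936-61631957, both within the span of the long non-coding RNA gene Dleu2, with 54 bases between their hairpins. A paired arrangement was found on the plus strand within the span of Smc4, a condensin subunit gene, where miR-15b lies at chr3:69009775-69009796 and the other copy of miR-16 at chr3:69009918-69009939, with 66 bases between the hairpins. Since both copies give the same mature miR-16-5p, the array cannot tell apart the RNA of the 2 sites. The mature miR-497-5p (chr11:70234730-70234751) and miR-195a-5p (chr11:70235062-70235082) lie on the plus strand, with 241 bases between their hairpins. On the X chromosome miR-322 (chrX:53054306-53054327, minus strand), the mouse counterpart of human miR-424, was 200 bases from miR-503 and within the span of the non-coding RNA gene C430049B03Rik. The mature miR-103-3p also has 2 sites, within Pank2 (chr2:131288103-131288125, plus strand) and Pank3 (chr11:35782447-35782469, plus strand), whereas miR-107-3p has 1, within Pank1 (chr19:34820700-34820722, minus strand).

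In the miR-15/16 family the highest unscaled signal of every member was on the 24 h array, and that on the 48 h array was the lowest for 5 of the 6 members. With 1 feature size for all arrays, 24 h was within the scanner error of the next highest array for miR-15b-5p, miR-195a-5p, and miR-322-5p, and relative to the median miRNA of each array no member was highest at 24 h. The signal of miR-15a-5p was 252.0 ± 18.0 (scanner error) on the sham array and 273 ± 19.5, 364 ± 26.0, 481 ± 34.4, and 221 ± 15.9 at 6, 12, 24, and 48 h. For this miRNA each array in the order 48 h, sham, 12 h, and 24 h was above the one before by more than the scanner error, while 6 h and sham were not separated. By contrast, miR-15b-5p had its lowest signal at 12 h, with 191 ± 16.6 for sham and 200.4 ± 17.6, 153 ± 13.2, 290.03 ± 24.8, and 198 ± 16.8 at the same times. Its sham, 6 h, and 48 h arrays differed by less than the error.

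The signal of miR-16-5p, which both clusters with miR-15 produce, was 230.3 ± 18.5 for sham and 223 ± 18.0, 243 ± 19.6, 385 ± 31.0, and 163 ± 13.2 at 6, 12, 24, and 48 h. Sham, 6 h, and 12 h were not separated, 24 h was above them, and 48 h was below them. For miR-195a-5p the signals were 269 ± 22.8, 267 ± 22.9, 228 ± 18.97, 355 ± 30.0, and 148 ± 12.7 in the order sham, 6, 12, 24, and 48 h. Here 12 h also lay below sham and 6 h by more than the error, and the 48 h signal was 0.551 times that of sham. The neighbour of miR-195a in the genome, miR-497-5p, gave 147 ± 12.7, 139.7 ± 12.4, 156 ± 14.0, 232 ± 20.4, and 110.3 ± 9.67 on the same arrays. For miR-322-5p the values were 138 ± 10.67, 152 ± 11.8, 137 ± 10.6, 205 ± 15.7, and 109.7 ± 8.59. In both, 24 h stood above and 48 h below the other 3 arrays by more than the scanner error.

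The members miR-103-3p and miR-107-3p had different courses. The signal of miR-103-3p was 226 ± 19.1 for sham and 221 ± 18.6, 291 ± 24.3, 423 ± 35.4, and 181 ± 15.3 at 6, 12, 24, and 48 h, so that 12 h and then 24 h stood above sham and 6 h. For miR-107-3p the signal was 518 ± 38.5, 523 ± 39.2, 564 ± 42.2, 573 ± 43.2, and 301 ± 22.6 on the same arrays. Its sham, 6, 12, and 24 h signals lay within 1 scanner error of each other, and only 48 h stood apart, at 0.58 times sham. Added over its members, the miR-15/16 family had 1226 ± 41.7 intensity units on the sham array and 1256 ± 42.8, 1281 ± 43.6, 1948 ± 65.7, and 949.8 ± 32.2 at 6, 12, 24, and 48 h. The sum of miR-103-3p and miR-107-3p was 744 ± 43.0, 744 ± 43.4, 855 ± 48.7, 996 ± 55.8, and 482 ± 27.3.

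**Figure D1:**
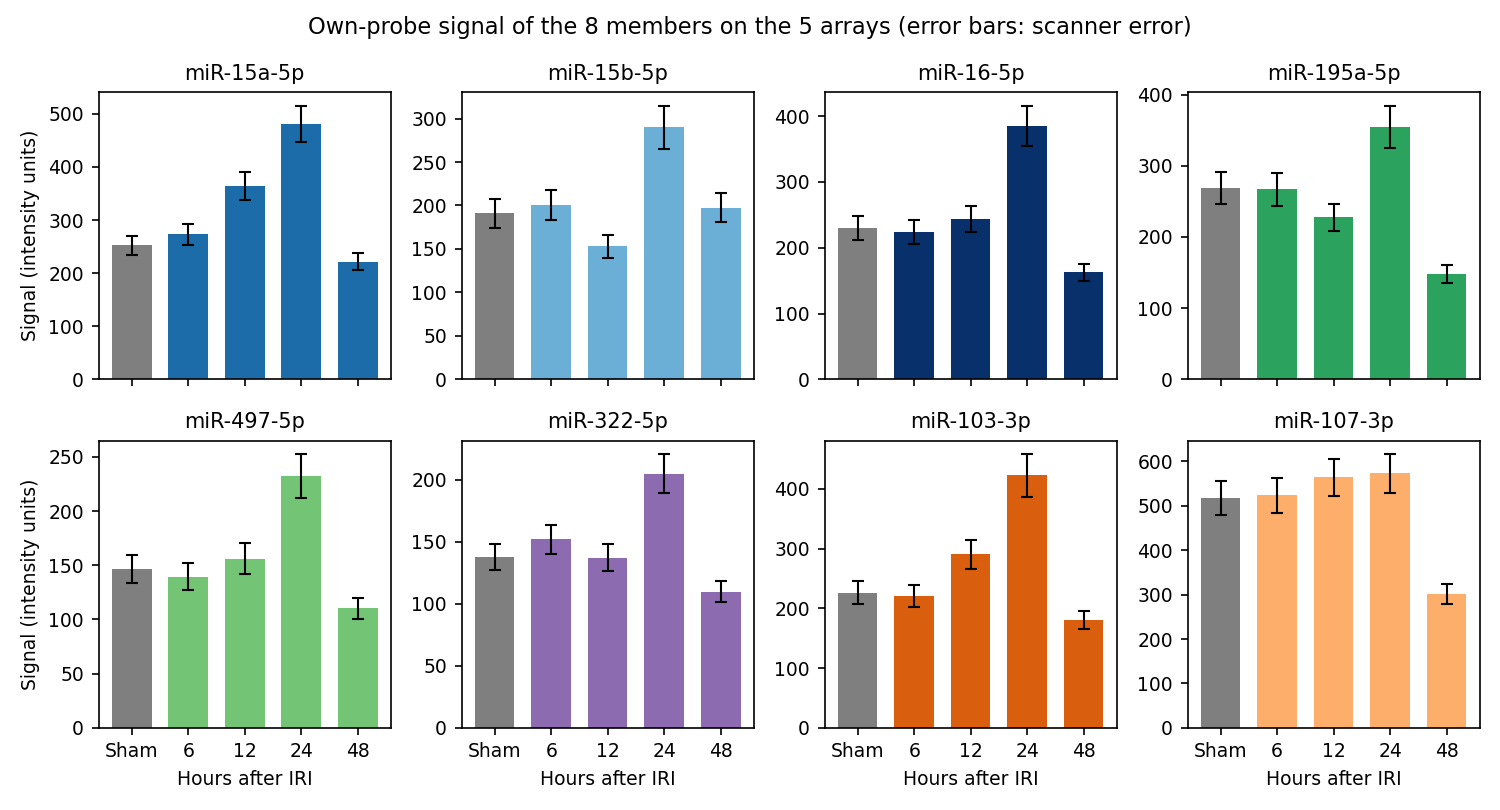
Own-probe signal in intensity units (y axis from 0, with a scale of its own in each panel) of the 8 members on the sham array (grey) and on each IRI array (colour, hours after IRI on the x axis), 1 array per bar with the scanner error. On this unscaled signal the 24 h bar is the tallest in each panel, by more than the error in all but miR-107-3p, and the 12 h bar is the lowest only in miR-15b-5p.

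At 6 h, the array that shared slide and scan with sham, no member differed from sham by more than the scanner error. Their log2 ratios over sham lay between −0.07 (miR-497-5p) and 0.14 (miR-322-5p), with a median of 0.0031 and scanner errors of 0.15 to 0.18. Among the 182 always detected miRNAs, 42.9% were above sham by more than their error and 12.1% below, and their median log2 ratio was 0.16. More than 2-fold above sham were 0 of 8 members, beside 20.1% of the 209 miRNAs detected on both arrays.

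At 12 h the members went different ways. The log2 ratio over sham was 0.53 ± 0.15 for miR-15a-5p and 0.36 ± 0.17 for miR-103-3p, the 2 members above sham by more than the error, beside 70.9% of all 182 miRNAs. It was −0.32 ± 0.18 for miR-15b-5p and −0.24 ± 0.17 for miR-195a-5p, which were below sham by more than the error, beside 6.59% of all. More than 2-fold above or below sham were 0 members, beside 34.6% and 0.481% of the 208 miRNAs detected on both arrays. The other 4 members lay within the error, and the median of the 8 was 0.085, beside 0.55 for all miRNAs. With 1 feature size for all arrays the members' median was −0.28, and miR-15a-5p alone was still above sham (0.16), beside 48.4% of all. Below sham by more than the error were 6 members, and the share of all miRNAs below was not computed for this scaling. Between these scalings the sign changed for 4 members, miR-16-5p, miR-497-5p, miR-103-3p, and miR-107-3p. After division by the spike-in RNAs all 8 were below sham at 12 h, miR-15a-5p included (−0.52). The median miRNA was below sham on that scale too, as its unscaled ratio of 0.55 was under the spike-in mean of 1.05. Thus miR-15b-5p and miR-195a-5p were the members below sham by more than the error under all 3 scalings. Read unscaled by the weaker probe alone, both were within the error, at −0.11 and −0.02. On the spike-in scale miR-15b-5p (−1.37), miR-195a-5p (−1.29), and miR-322-5p (−1.06) were more than 2-fold below sham, beside 18.1% of all. So was miR-15b-5p with quantile normalization (−1.29) and in the deposited processed values (−1.32), for which the share of all miRNAs was not computed.

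At 24 h, 7 of 8 members were above sham by more than the scanner error, beside 97.3% of all. The highest ratios were 0.93 ± 0.15 for miR-15a-5p and 0.90 ± 0.17 for miR-103-3p, which correspond to 1.91 and 1.87 times the sham signal. Then followed miR-16-5p with 0.74 ± 0.16, miR-497-5p with 0.66 ± 0.18, miR-15b-5p with 0.60 ± 0.18, miR-322-5p with 0.57 ± 0.16, and miR-195a-5p with 0.40 ± 0.17. The member within the error was miR-107-3p, with 0.14 ± 0.15. No member was more than 2-fold above sham, beside 55% of the 209 miRNAs detected on both arrays. The median of the members was 0.63 and that of all miRNAs 1.03. With 1 feature size the members' median was 0.26, 6 members were above sham by more than the error, beside 85.2% of all, and miR-107-3p was below it, at −0.23. After division by the spike-in RNAs all 8 were below sham, with a median of −0.46. The median miRNA was below sham on that scale too, as its unscaled ratio of 1.03 was under the spike-in mean of 1.09. The direction against sham at 24 h thus depends on the scale. Divided by single spike-ins, the members' median ran from −0.94 to 0.0224, and with the lowest spike-in 4 of 8 members were above sham.

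At 48 h, 7 of 8 members were below sham by more than the scanner error, beside 51.1% of all miRNAs. The lowest were miR-195a-5p, at −0.86 ± 0.17, and miR-107-3p, at −0.78 ± 0.15, and the member that did not differ was miR-15b-5p, at 0.0498 ± 0.18. The others were between −0.50 (miR-16-5p) and −0.19 (miR-15a-5p). The median of the 8 was −0.37, beside −0.23 for all miRNAs, and the feature size of this array was that of sham. More than 2-fold above or below sham were 0 members, beside 7.98% and 8.51% of the 188 miRNAs detected on both arrays. With the spike-ins 7 of 8 were more than 2-fold below sham, at −1.23 to −1.90, beside 62.6% of all, and miR-15b-5p was at −0.99. With quantile normalization the members' median was −0.12, and in the processed values −0.13. By quantile normalization miR-195a-5p (−0.73), miR-107-3p (−0.61), and miR-16-5p (−0.35) were below sham by more than the error. Within it were miR-103-3p (−0.16), miR-322-5p (−0.08), miR-497-5p (−0.08), and miR-15a-5p (0.039), and miR-15b-5p was above (0.19). The share of all miRNAs was not computed on this scale. The RNA came from a portion of frozen kidney tissue, and which part of the kidney it held is not stated. In such RNA, fewer cells of a type and less RNA per cell cannot be told apart.

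**Figure D2:**
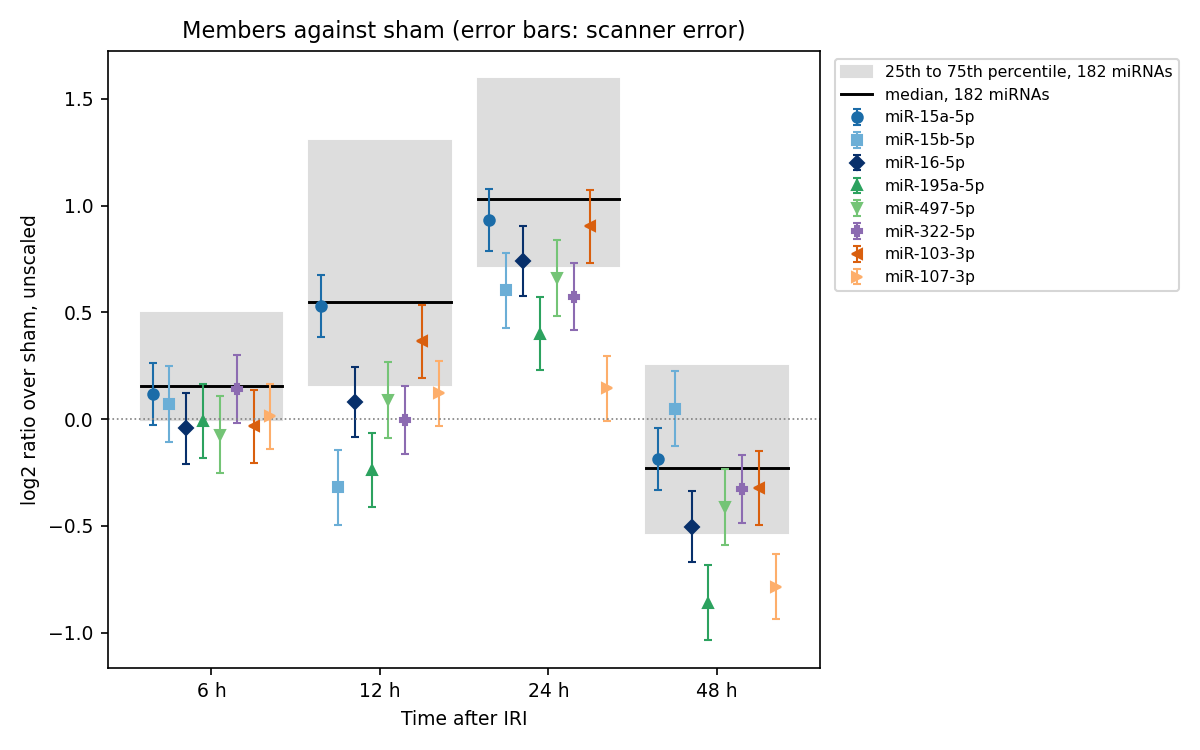
Unscaled log2 ratio over sham (y axis) of the 8 members by time after IRI (x axis), with scanner error bars; the grey box spans the 25th to 75th percentile and the black line marks the median of the 182 miRNAs detected on all arrays. At 24 h miR-107-3p is near 0 (0.14) while miR-15a-5p and miR-103-3p are near 0.9, and at 12 h all 8 points lie below the median line at 0.55.

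The members were also compared with the median miRNA of the same array, which removes any factor that a whole array shares, such as feature size. Effects that differ between the RNAs of 1 array are not removed, and the single spike-ins ranged from 0.70 to 1.68 at 12 h. At 6, 12, and 24 h all 8 members lay below the median miRNA, as 50% of all miRNAs do by construction. By more than the scanner error there were 3, 7, and 6 members, beside 18.7%, 35.7%, and 36.3% of all. At 48 h, 6 of 8 were below, 4 of them by more than the error, beside 33.5%. Their median relative log2 ratio was −0.15, −0.46, −0.40, and −0.14 in time order.

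On this relative scale miR-107-3p had the lowest value of the 8 at 24 h, −0.89 ± 0.15, and 1.099% of the 182 miRNAs were lower. The lowest at 12 h was miR-15b-5p, at −0.87 ± 0.18, with 3.30% of miRNAs below it, and the same miRNA was above the median miRNA at 48 h, at 0.28 ± 0.18. For miR-195a-5p the relative value at 12, 24, and 48 h was −0.79, −0.63, and −0.63. In contrast, miR-15a-5p differed from the median miRNA by less than the error at each time, with values between −0.10 and 0.0428. This did not hold with quantile normalization at 12 h, where miR-15a-5p was at −0.17 and the median miRNA at −0.53. The distance to the median miRNA depends on which miRNAs set the median. Against the 43 miRNAs whose sham signal lay in the range of the members, the 8 members included, 6 of 8 members were below at 6, 12, and 24 h and 4 of 8 at 48 h. Against the other 35 alone, 7, 7, 6, and 4 members were below in time order, and after quantile normalization between arrays 3, 5, 6, and 6 members were below the median miRNA.

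**Figure D3:**
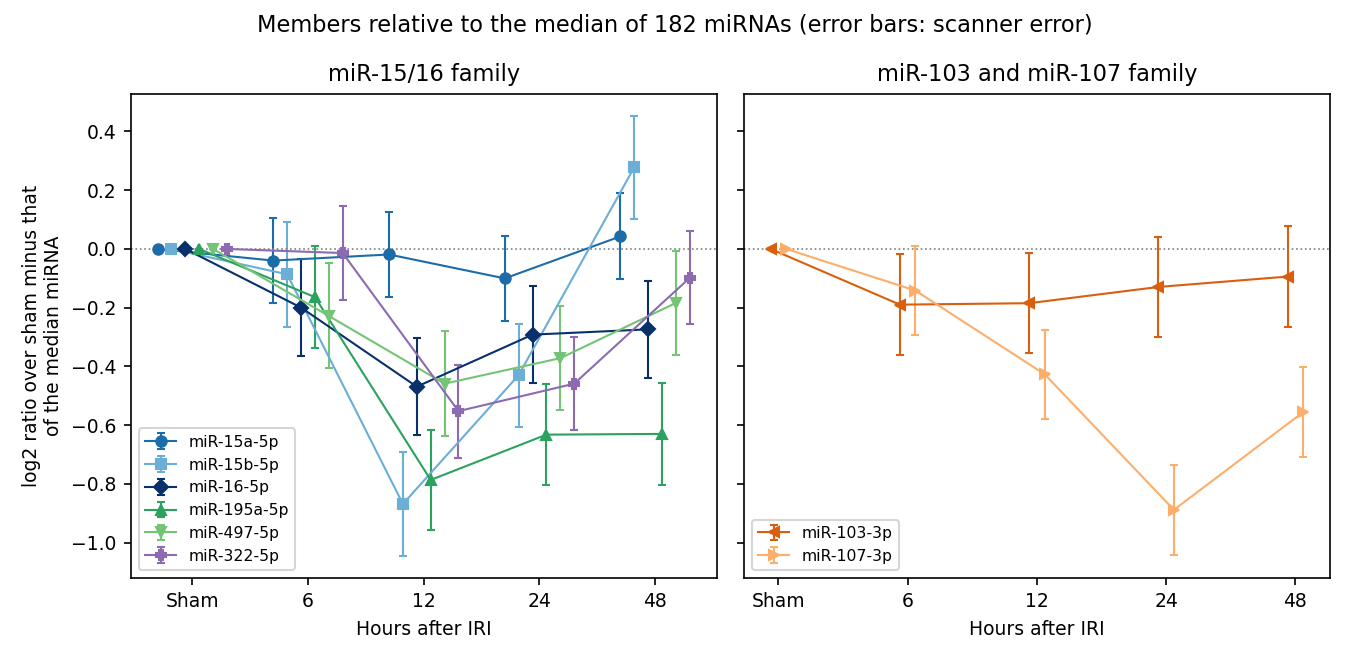
Log2 ratio over sham minus that of the median of 182 miRNAs (y axis) on each array (x axis, sham at 0 by definition), with scanner error bars, for the miR-15/16 family (left) and for miR-103-3p and miR-107-3p (right). The line of miR-107-3p reaches −0.89 at 24 h while that of miR-103-3p stays between −0.19 and −0.09, and miR-15b-5p goes from −0.87 at 12 h to 0.28 at 48 h.

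The 12 and 24 h arrays shared a slide, a scan, and nearly the same feature size, and their spike-in RNAs differed by 0.036 on the log2 scale. Between them 7 of 8 members were higher at 24 h by more than the scanner error, beside 64.3% of all 182 miRNAs. The largest log2 ratio of 24 over 12 h was that of miR-15b-5p, 0.92 ± 0.18, followed by miR-16-5p with 0.66 ± 0.16 and miR-195a-5p with 0.64 ± 0.17. The signal of miR-107-3p did not differ between these arrays, with 0.023 ± 0.15. The members' median was 0.57, beside 0.46 for all miRNAs. Above the median miRNA were 6 of 8 members, as 50% of all miRNAs are by construction. Of these members, miR-103-3p (0.08), miR-497-5p (0.11), and miR-322-5p (0.12) were above it by less than the error. From 24 to 48 h all 8 members were lower by more than the error, beside 96.7% of all, by −1.26 (miR-195a-5p) to −0.55 (miR-15b-5p), with a median of −1.10 beside −1.24 for all miRNAs, and with 1 feature size the range was −0.89 to −0.18. The spike-in RNAs of these arrays differed by −0.0486. Under other scalings the members' median was higher at 48 than at 24 h, at −0.24 against −0.53 with the 75th percentile, −0.12 against −0.38 with quantile normalization, and −0.13 against −0.40 in the processed values.

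The members with nearly the same sequence, or from 1 cluster, were then set against each other as differences of log2 ratios over sham, in which a factor common to an array cancels. Of the 6 pairs compared, miR-103-3p and miR-107-3p are the most alike in sequence, and their ratios were alike at 6 h, where miR-107-3p minus miR-103-3p was 0.0479 ± 0.23. The difference was −0.24 ± 0.23 at 12 h, −0.76 ± 0.23 at 24 h, and −0.46 ± 0.23 at 48 h, beyond 2 scanner errors at the last 2 times. Under the 10 other ways of processing the signals, it lay between −0.92 and −0.51 at 24 h and between −0.58 and −0.42 at 48 h. Those that divide an array by 1 factor cannot change a difference. Total gene signals and all probes summed gave nearly the main values. The range thus rests on single probes, normexp, quantile normalization, and the processed values. The probes that read this pair differ at the base that separates the miRNAs, which is in capitals here:
probe of miR-103-3p, 18 bases: tCatagccctgtacaatg
probe of miR-107-3p, 20 bases: tGatagccctgtacaatgct

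Both are complementary to the 3′ end of the mature miRNA, and the distinguishing base is the second of the probe. With the base at position 2 left aside, the probe of either miRNA would pair with the other along its whole length, and how much each probe reads of the other miRNA was not tested. The shorter probes of the pair, of 17 and 19 bases, gave −0.92 for miR-107-3p minus miR-103-3p at 24 h.

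Within the miR-15/16 family, the log2 ratio of miR-15b-5p minus that of miR-15a-5p was −0.85 ± 0.23 at 12 h, −0.33 ± 0.23 at 24 h, and 0.24 ± 0.23 at 48 h, and only the difference at 12 h was beyond 2 errors. Across the 10 other ways of processing, some of which cannot change a difference, the 12 h difference was between −1.12 and −0.66. Against miR-16-5p, with which it shares the cluster in Smc4, miR-15b-5p was at −0.40 ± 0.24 at 12 h and 0.55 ± 0.24 at 48 h, and with the weaker probe of each miRNA the 12 h difference was −0.23, within the error. For the cluster in Dleu2, miR-15a-5p minus miR-16-5p was 0.45 ± 0.22 at 12 h, 0.19 ± 0.22 at 24 h, and 0.32 ± 0.22 at 48 h. In the third cluster, miR-195a-5p minus miR-497-5p was −0.33 ± 0.25 at 12 h, −0.26 ± 0.25 at 24 h, and −0.45 ± 0.25 at 48 h, none of them beyond 2 errors, and at 12 h it was 0.10 with the weaker probe of each miRNA. The pair nearest in sequence within the family, miR-16-5p minus miR-195a-5p, gave −0.0355, 0.32, 0.34, and 0.36 in time order, each ± 0.24, beyond 1 error but not 2 at the last 3 times. With the weaker probes its 12 h difference was 0.14.

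Since each member had 2 probes of 17 to 22 bases, every ratio could be read a second time on the same array. In all 32 comparisons, 8 members at 4 times, the log2 ratios of the 2 probes were closer than their combined error. The scanner error of a ratio was 0.20 to 0.21 for every stronger probe. The variation among the 20 spots of a probe ran from 2.70% to 22.9%. The error thus hardly varied with the spread of the spots, and closeness within it is a weak check of the probes. The median difference was 0.0909 and the largest 0.28, for miR-322-5p at 24 h, where the stronger probe gave 0.49 and the weaker 0.77. The sign was the same in 27 of 32. At 24 h miR-107-3p was at 0.18 by its stronger and 0.07 by its weaker probe, and miR-103-3p at 0.88 and 0.99. For miR-15b-5p at 12 h, the probes gave −0.36 and −0.11, and for miR-195a-5p −0.29 and −0.02. Both probes share the array and the RNA, so their agreement carries no information on the variation between mice.

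**Figure D4:**
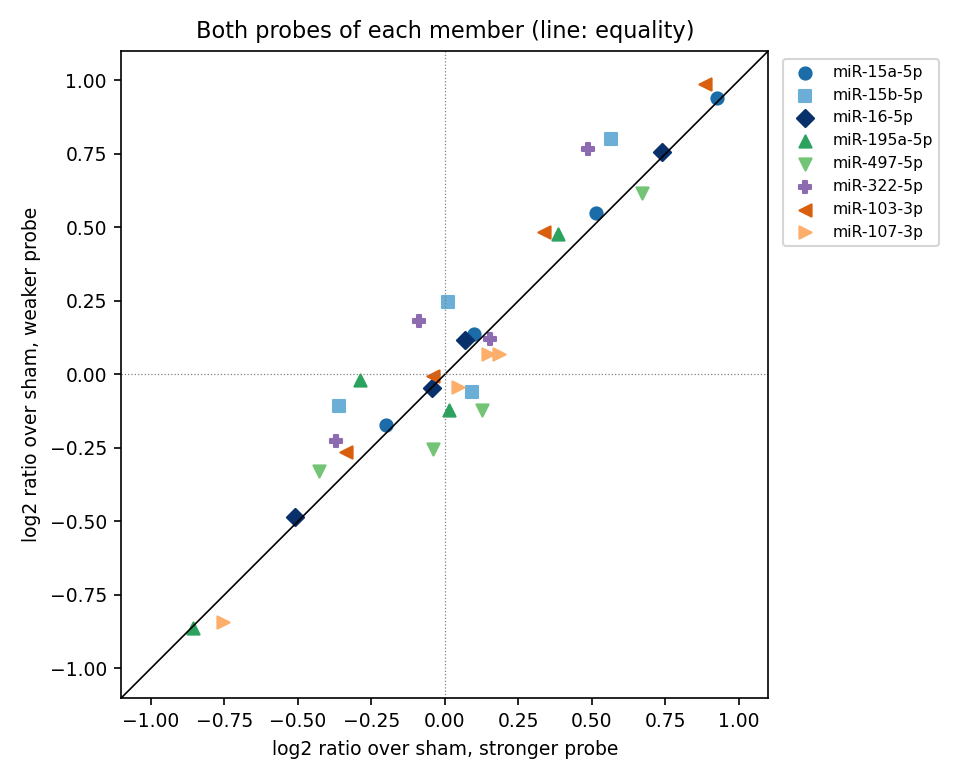
Log2 ratio over sham from the stronger probe (x axis) and the weaker probe (y axis) of each member, 1 point for each of 4 times, with the line of equality. The 32 points lie within 0.28 of the line, measured vertically, and the miR-107-3p and miR-195a-5p points at 48 h are the lowest.

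Of the 10 other arms, 9 were on the array, 8 of these were detected on none of the 5 arrays, and miR-195a-3p was detected at 12 h (26.6 ± 3.48) and 24 h (9.69 ± 2.93) only. Of the 13 neighbours in the genome and miRNAs that share bases 2 to 7 with a member, 1 was detected on all arrays and 9 on none. The miR-322 neighbour miR-503-5p, itself of the same seed over bases 2 to 7, was detected on the sham array only, with a signal of 5.60, and miR-351-5p at 24 h only, with 4.41. Detected on all arrays was miR-1906, whose bases 2 to 7 are those of miR-103-3p and miR-107-3p, with signals of 19.7 ± 2.23 for sham and 23.8 ± 2.72, 55.7 ± 4.98, 61.4 ± 5.99, and 5.82 ± 1.73 at 6, 12, 24, and 48 h. Its log2 ratio over sham was 1.50 at 12 h, 1.64 at 24 h, and −1.76 at 48 h, where its signal was only just above 3 times its error. The lowest detected signal of an array was between 1.99 (sham) and 4.35 (24 h).

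The 5 miRNAs whose 4 log2 ratios over sham lay nearest to those of miR-16-5p, by root mean square difference over 4 times, were miR-98-5p (0.0558), miR-497-5p (0.0622), miR-126-3p (0.0882), let-7c-5p (0.0917), and miR-130a-3p (0.0932). One of these, miR-497-5p, is a member, and miR-126-3p is the known endothelial miRNA. For miR-103-3p they were miR-200b-3p (0.0661), an epithelial miRNA, miR-532-5p (0.0956), let-7g-5p (0.0969), miR-331-3p (0.105), and miR-141-3p (0.11). None of these 5 was miR-107-3p, whose nearest miRNA was miR-361-5p (0.134). These distances rest on 4 ratios that share 1 sham array. All those named were smaller than the scanner errors of the members' ratios, 0.15 to 0.18, so the order of the nearest miRNAs is not resolved.

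Of the kidney tubule miRNAs listed, 6 of 6 were detected on all arrays, with summed signals of 3184 for sham and 3611, 3958, 4985, and 2407 at 6, 12, 24, and 48 h. Without another tissue for comparison, this detection does not test the tissue label. Among blood miRNAs, the erythroid miR-451a had signals of 159, 500.3, 234, 538, and 105 on the same arrays, miR-144-3p was detected on none, and miR-486-5p was not found by name. The 5 leukocyte miRNAs had summed signals of 38.2, 66.4, 99.8, 58.2, and 61.2, and of the 99.8 at 12 h the myeloid miR-223-3p gave 82.7. The signal of miR-155-5p was 10.3 at 12 h and highest at 24 h, at 18.7, miR-142-3p was detected on 3 arrays, and 2 of the 5, miR-142-5p and miR-150-5p, were detected on no array. The endothelial miR-126-3p had 827, 881, 898, 1284, and 586, and miR-126-5p was detected on the sham array only, at 3.82. The tubule and endothelial sums, like the sums of both families, were highest at 24 h and lowest at 48 h, whereas the leukocyte sum was highest at 12 h. Not every tubule miRNA followed the sum. The signal of miR-204-5p was lowest for sham, at 7.26 ± 1.41, beside 46.7 ± 5.32 at 24 h and 8.29 ± 1.84 at 48 h. That of miR-194-5p was 255 ± 20.8 at 12 h and 254 ± 20.8 at 24 h. The part of any cell type in the members' values was not tested.

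The direction of the members as a group against sham was not the same under every scaling. Unscaled, their median log2 ratio was 0.0031, 0.085, 0.63, and −0.37 at 6, 12, 24, and 48 h, and with 1 feature size it was 0.0031, −0.28, 0.26, and −0.37. With the arrays divided by the spike-in RNAs it was −0.07, −0.97, −0.46, and −1.41, and with the arrays divided by their 75th percentile it was −0.29, −0.55, −0.53, and −0.24. The median at 24 h was above that at 12 h under each of these scalings. With the 75th percentile the values of −0.53 and −0.55 differed by less than the scanner error of 0.17. Differences between members at 1 time are equal under all of these scalings.

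**Figure D5:**
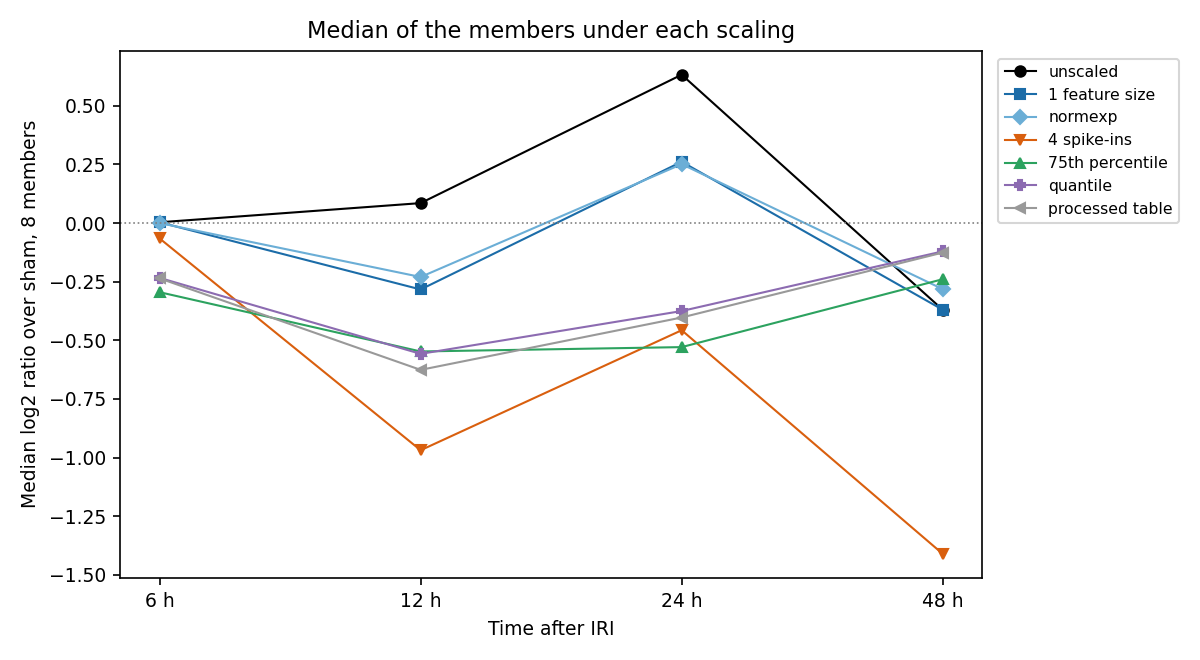
Median log2 ratio over sham of the 8 members (y axis) by time after IRI (x axis), 1 line for each way of scaling the arrays. Values at 24 h run from 0.63 unscaled to −0.53 with the 75th percentile, and at 48 h all 7 lines lie below 0.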

How the data were processed

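Kidney miRNAs of 1 sham array and 1 array at each of 6, 12, 24, and 48 h after IRI were analysed, grouped by the sample titles. The authors deposited intensity values from Agilent Feature Extraction 10.7.1.1, per the labels and file headers, background-subtracted and detrended within each array and not normalized between arrays. A table of processed log2 values deposited by the authors, whose making is not given in the sources used here and whose scale and centring are unknown, was an alternative. Probe signals were taken once per probe and summed over the probes of a miRNA above 3 times their error. Scanner errors were added in squares. Log2 ratios over sham were computed unscaled, with 1 feature size, after division by 4 spike-in RNAs, and relative to the median of the 182 miRNAs detected on all arrays. Other alternatives were the 75th percentile, quantile normalization, normexp (offset 50), deposited total gene signals, single probes, and no detection filter. With 1 array per group no test and no p-value was computed, and precision is limited by the number of arrays. The members, lists, and named miRNAs (members, other arms, neighbours and seed relatives, 5 nearest patterns, cell type markers) were chosen with earlier results of these data known. Sequences came from RefSeq (GRCm38.p6), where all 8 members were found, miR-497-5p under the name miR-497a-5p, and for probes from the scanner files. The scripts were tested on simulated data. Alternatives were run in R 4.3.3 with limma 3.58.1 and the rest in Python 3.11.15 with pandas 2.3.3 and numpy 2.4.6, and matplotlib 3.10.9 drew the plots.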

Additional observations from a re-analysis of the deposited data

How the results depend on the processing

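The limits are those of 5 single arrays. No paired analysis was possible because 1 array per group carries no shared replicate number. Leaving out an array leaves a group empty and was not run. The scanner error covers the spots of 1 array only.

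The median log2 ratio of the members at 6 h was −0.29 with the 75th percentile, −0.23 with quantile normalization, and −0.24 in the processed table. At 12 h it was −0.28 with 1 feature size, −0.97 with the spike-ins, −0.55 with the 75th percentile, −0.56 with quantile normalization, −0.23 with normexp, and −0.63 in the processed table. At 24 h the same 6 settings gave 0.26, −0.46, −0.53, −0.38, 0.25, and −0.40. At 48 h it was −1.41 with the spike-ins, −0.12 with quantile normalization, and −0.13 in the processed table. Relative to the median miRNA, the members' median with quantile normalization was 0.032 at 6 h, −0.027 at 12 h, and −0.14 at 24 h, from the processed values 0.035, −0.045, and −0.17, and with normexp −0.195 at 24 h. Against the median of miRNAs in the signal range of the members, an alternative chosen after seeing the data, it was −0.28 at 12 h and −0.22 at 24 h, and without the members in that range, also chosen so, −0.35 and −0.24. The count of members more than 2-fold above sham was 0 at all 4 times under every alternative run, and with the 75th percentile 1 member was more than 2-fold below at 24 h, miR-107-3p (−1.02). The share of all miRNAs above sham under the alternatives, or below it with the 75th percentile, was not computed, so these counts have no background.

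Members above sham by more than the error unscaled had these values below it. For miR-103-3p at 12 h the log2 ratio was −0.0043 with 1 feature size, −0.69 with the spike-ins, −0.27 with the 75th percentile, −0.21 with quantile normalization, −0.0035 with normexp, and −0.25 in the processed table. For miR-15a-5p at 12 h it was −0.52, −0.10, −0.17, and −0.20 with the spike-ins, the 75th percentile, quantile normalization, and the processed table. At 24 h miR-15a-5p, miR-15b-5p, miR-16-5p, miR-195a-5p, miR-497-5p, miR-322-5p, and miR-103-3p were, in this order, at −0.16, −0.49, −0.35, −0.69, −0.43, −0.51, and −0.19 with the spike-ins, at −0.23, −0.56, −0.42, −0.76, −0.50, −0.59, and −0.26 with the 75th percentile, at −0.21, −0.50, −0.31, −0.68, −0.23, −0.44, and −0.19 with quantile normalization, and at −0.20, −0.49, −0.32, −0.68, −0.24, −0.49, and −0.20 in the processed table. At 48 h miR-15a-5p was above sham with quantile normalization (0.039) and in the processed table (0.051). Members within the error unscaled also went below sham. With 1 feature size at 12 h, miR-16-5p was at −0.29, miR-497-5p at −0.28, and miR-107-3p at −0.25, and at 24 h miR-107-3p was at −0.23, and at −0.94 with the spike-ins. Total gene signals, the stronger probe, and all probes summed moved none of the 32 member values by more than the scanner error. The weaker probe, chosen after seeing the data, moved 8 of 32, and 4 values that had been within the error changed sign. Scaling differs between these settings by construction, and any further cause was not tested.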
